A study of Rattus norvegicus with 12 samples.

Results

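Cardiac fibroblasts were followed in left atrial RNA of rats through 10 genes, chosen by symbol from the 21239 genes that had counts in the deposited table: Pdgfra, Dcn, Lum and Thy1, which mark the cells, Fn1, Sparc, Tnc, Postn and Cthrc1, which encode matrix proteins, most of them made in larger amounts once the cells are activated, and Acta2, the smooth muscle actin of activated fibroblasts. All 10 were present in the table, and each had at least 1 read in every one of the 12 libraries.

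Fibroblasts build and repair the collagen network of the atrial wall. When load, injury or transforming growth factor beta signalling activates them, they secrete more matrix, and some assemble contractile fibres that contain smooth muscle actin, at which stage they are called myofibroblasts. Fibrous tissue laid down in this way separates bundles of atrial myocytes and is a known substrate of atrial fibrillation.

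The study compared 4 groups of 3 libraries each. WKY are Wistar-Kyoto rats, the normotensive control strain, and SHR are spontaneously hypertensive rats, and both received saline at 7.5 ml/kg/day. ARB are SHRs given valsartan, an angiotensin receptor blocker, at 30 mg/kg/day, and ARNI are SHRs given sacubitril/valsartan, which joins a neprilysin inhibitor to valsartan, at 60 mg/kg/day. Rats were bought at 14 weeks of age and dosed daily for 4 weeks, the saline groups included. The authors also stained sections with Masson's trichrome, which colours collagen in the tissue. No staining value was used here, and the RNA levels were not set beside collagen.

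The groups rest on names that the labels do not give in only 1 way. For the 6 saline libraries the words of the title name the opposite strain to the bracketed library name, and the libraries were grouped by the bracketed name, which is also the name of their count columns. If the title words were right, every sign of SHR against WKY below would turn, and ARB and ARNI would have been set against saline WKY rats. Both treated groups carry a WKY strain label next to an SHR phenotype label, and the study's methods call those rats SHRs. Mettl24 was at 3.02 to 3.58 CPM (expected counts per 1000000 counts of the library) in the libraries named WKY and at 0 to 0.07 CPM in the other 9, while Ndufa10l1 was at 0 in the libraries named WKY and at 54.0 to 119 CPM in the other 9, so the libraries named SHR grouped with the treated SHRs in both genes. Both genes were taken because earlier results had given them as strain-linked, so this grouping is no independent check of the names.

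Library totals ran from 11252361 to 15823525 counts, so that 3 reads, which a count of 0 cannot exclude, were worth 0.19 to 0.27 CPM. All libraries are labelled left atrium, but 6 of them carried the ventricular light chain Myl2 at 2298 to 4161 CPM, namely the 3 WKY libraries, SHR 2, ARB 3 and ARNI 2, and the other 6 had it at 0.14 to 24.2 CPM. The ventricular transcription factor Irx4 divided the libraries in the same way, at 26.2 to 49.7 CPM against 0 to 0.07 CPM. The atrial light chain Myl7 was at 0.89 to 15.9 CPM in the WKY libraries, at 9.67 CPM in ARNI 2, at 4478 and 5144 CPM in SHR 2 and ARB 3, and at 7568 to 11547 CPM in the remaining 6. Atrial myocyte markers were thus nearly absent from all 3 WKY libraries and from ARNI 2. Because every WKY library and only 1 in 3 libraries of each other group carried Myl2 at that level, strain and chamber markers cannot be told apart in SHR against WKY. ARNI 3 stood apart in another way: its 12 neuron and glia markers summed to 290 CPM against 34.1 to 110 CPM in the other 11, and its 5 adipocyte markers summed to 391 CPM, near ARB 2 at 361 CPM, with the other 10 at 15.3 CPM or less. Several fold changes that rest on 1 of these libraries are given with and without it. The correlations below are over all 12 libraries only. SHR against WKY cannot be fitted without the libraries high in Myl2, since these include all of WKY.

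**Figure D1:**
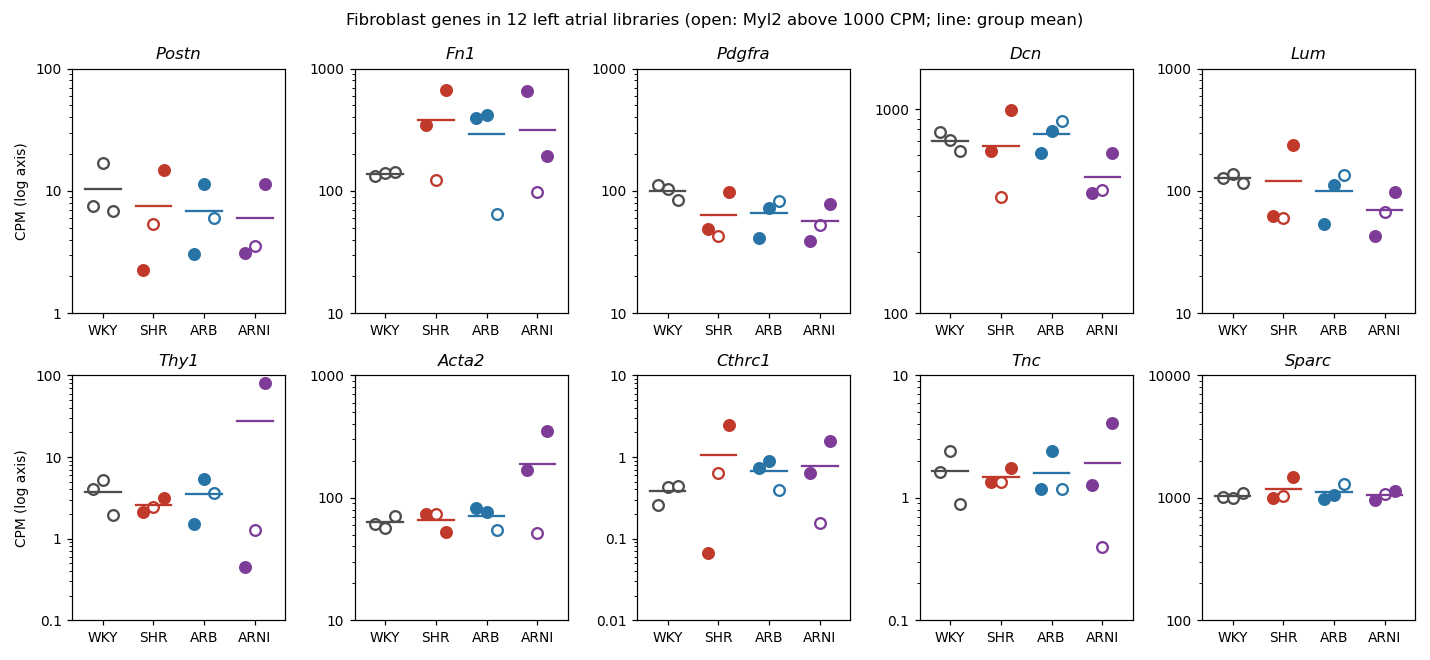
CPM of the 10 fibroblast genes (y axis, log scale, with its own range in each panel) in the 12 libraries by group (x axis). Points are libraries, lines are group means, and open points are the 6 libraries with Myl2 above 1000 CPM. The 3 Fn1 points of WKY lie between 131 and 143 CPM while each other group spreads over more than 5 times from its lowest to its highest library, and ARNI 3 is the top point of Thy1 and Acta2.

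None of the 10 genes passed the test in SHR against WKY, and in none did the 2 groups separate. Pairs of groups were tested on their 6 libraries by edgeR (quasi-likelihood), and a gene was called when its log2 fold change reached 1 in size and its p, adjusted by Benjamini-Hochberg over all genes tested, was 0.05 or less. Of the 9 members tested, 0 were called, where the background over 13794 genes was 8.89%, and 0 of 10 had groups that did not overlap, where the background was 49.5%. By adjusted p alone the count was 0 of 9, where the background was 20.6%, and an unadjusted p under 0.05 was reached by 2 of 9, Fn1 and Pdgfra, where the background was 39.4%. Cthrc1 was removed by the filter on low counts. Their median log2 fold change was -0.26, with 2 above 0 and 7 below, beside 0.02 and 51.3% above 0 over all genes tested.

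Pdgfra encodes the receptor for platelet-derived growth factor that marks resident cardiac fibroblasts. It was at 111, 103 and 85.0 CPM in WKY, at 49.1, 43.1 and 97.8 CPM in SHR, at 41.5, 73.0 and 82.2 CPM in ARB and at 38.8, 52.5 and 78.4 CPM in ARNI. The WKY libraries lay above every ARB and every ARNI library, but SHR 3 lay among them. The share of all genes that separate WKY from ARB or ARNI was not counted. SHR against WKY was -0.81 on the log2 scale (SE 0.28, 95% interval -1.48 to -0.14, adjusted p = 0.0812 by edgeR), and without SHR 3 it was -1.20 (adjusted p = 0.00745), past both thresholds. ARB against SHR was 0.11 (interval -0.75 to 0.97) and ARNI against SHR was -0.07 (interval -0.97 to 0.82). In bulk tissue, fewer fibroblasts and less RNA per fibroblast cannot be told apart, for Pdgfra or any other member.

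Dcn and Lum encode decorin and lumican, small proteoglycans that bind collagen fibrils. Dcn was at 772, 707 and 626 CPM in WKY, at 624, 372 and 991 CPM in SHR, at 608, 782 and 877 CPM in ARB and at 391, 401 and 612 CPM in ARNI. The SHR libraries held both the lowest and the highest Dcn level of all 12. SHR against WKY was -0.24 (SE 0.30, adjusted p = 0.578 by edgeR). ARNI had the lowest mean, and ARNI against ARB was -0.65 (SE 0.25, interval -1.26 to -0.04) with an unadjusted p of 0.0394 and an adjusted p of 0.993 by edgeR, so the difference did not pass.

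Lum was at 127, 138 and 115 CPM in WKY, at 62.2, 59.9 and 238 CPM in SHR, at 53.6, 112 and 134 CPM in ARB and at 43.0, 67.1 and 97.5 CPM in ARNI. Within SHR the third library stood 3.89 times above the mean of the other 2, and those 2 were below every WKY library. With all libraries SHR against WKY was -0.26 (interval -1.45 to 0.94), and without SHR 3 it was -1.15 (adjusted p = 0.00526 by edgeR), past both thresholds. ARNI against SHR was -0.69 (interval -2.14 to 0.76).

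SHR 3 was the library with the highest level of 5 members, Fn1, Dcn, Lum, Cthrc1 and Sparc, and it exceeded both other SHR libraries in 9 of 10. ARNI 3 likewise exceeded both other ARNI libraries in 9 of 10. The share of all genes in which either library tops its group was not counted. The fibrillar collagens were high in SHR 3 too: Col1a1 was at 803 CPM against 249 and 214 CPM in SHR 1 and 2, and Col3a1 was at 2121 CPM against 574 and 534 CPM. In ARNI 3, Col1a1 was at 792 CPM against 170 and 232 CPM in ARNI 1 and 2, and Col3a1 was at 1358 CPM against 496 and 491 CPM. Ccn1, a matricellular protein induced early by growth factors and stretch, was at 1140 CPM in SHR 3 against 52.0 and 54.6 CPM. In ARNI 3 it was at 443 CPM against 108 and 106 CPM. The 22 other fibroblast identity genes summed to 7256 CPM in SHR 3 and to 2350 to 5164 CPM in the other 11 libraries, and the 10 epicardial and mesothelial markers summed to 518 CPM against 253 and 289 CPM in the other SHR libraries. The leukocyte markers summed to 199 CPM in SHR 3, to 100 and 65.6 CPM in SHR 1 and 2, and to 43.7 to 280 CPM over all 12. The part of these cells in the levels of SHR 3 was not tested.

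Thy1 encodes a surface glycoprotein of fibroblasts that is also abundant on neurons. It was at 4.01, 5.22 and 1.96 CPM in WKY, at 2.14, 2.44 and 3.18 CPM in SHR, at 1.52, 5.43 and 3.65 CPM in ARB and at 0.44, 1.26 and 80.2 CPM in ARNI. ARNI thus held the 2 lowest libraries of all 12 and, in ARNI 3, a level 14.8 times that of the next library. ARNI against SHR was 3.40 (SE 1.76, interval -0.88 to 7.67, adjusted p = 0.999 by edgeR), and without ARNI 3 the sign turned, to -1.45. In the same library the neuron markers Stmn2, Prph and Snap25 were at 58.0, 62.7 and 26.1 CPM, against at most 4.33, 15.0 and 1.75 CPM in the other 11, and none of the 12 neuron and glia markers was at 0. Slc18a3, the vesicular acetylcholine transporter of cholinergic neurons, was at 20.9 CPM there and at 0.34 CPM or less elsewhere. The part of neurons in the Thy1 level was not tested.

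Fn1 encodes fibronectin, the matrix glycoprotein that fibroblasts lay down ahead of collagen. It was at 131, 141 and 143 CPM in WKY, at 346, 123 and 664 CPM in SHR, at 395, 416 and 64.5 CPM in ARB and at 657, 98.6 and 193 CPM in ARNI. The WKY libraries agreed within 1.09 times, whereas the highest library of SHR, ARB and ARNI exceeded the lowest by 5.42, 6.45 and 6.67 times. SHR against WKY was 1.27 (SE 0.50, interval 0.07 to 2.47) with an unadjusted p of 0.0405 and an adjusted p of 0.111 by edgeR. Without SHR 2 it was 1.68 (adjusted p = 0.00201 by edgeR), past both thresholds, and DESeq2 on all 6 libraries also called it, at 1.26 (adjusted p = 0.0261).

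Fn1 was the single member that divided the libraries as the chamber markers did. It was at 64.5 to 143 CPM in the 6 libraries with Myl2 above 1000 CPM and at 193 to 664 CPM in the other 6, without overlap, while the ranges of the other 9 members overlapped. Among 14452 genes the background of such a split was 21.1% in either direction. The 3 SHR-strain libraries with ventricular markers, SHR 2, ARB 3 and ARNI 2, had Fn1 at 123, 64.5 and 98.6 CPM, below all 3 WKY libraries. Without these 3 libraries ARB against SHR was -0.28 and ARNI against SHR was -0.18 on the log2 scale, both with 0 members called. Whether the chamber or the strain goes with Fn1 cannot be told apart in SHR against WKY, and a fit of all 12 libraries with the score of atrial minus ventricular markers as covariate gave -1.46, although the scores of the 2 groups do not overlap and the value is an extrapolation.

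**Figure D2:**
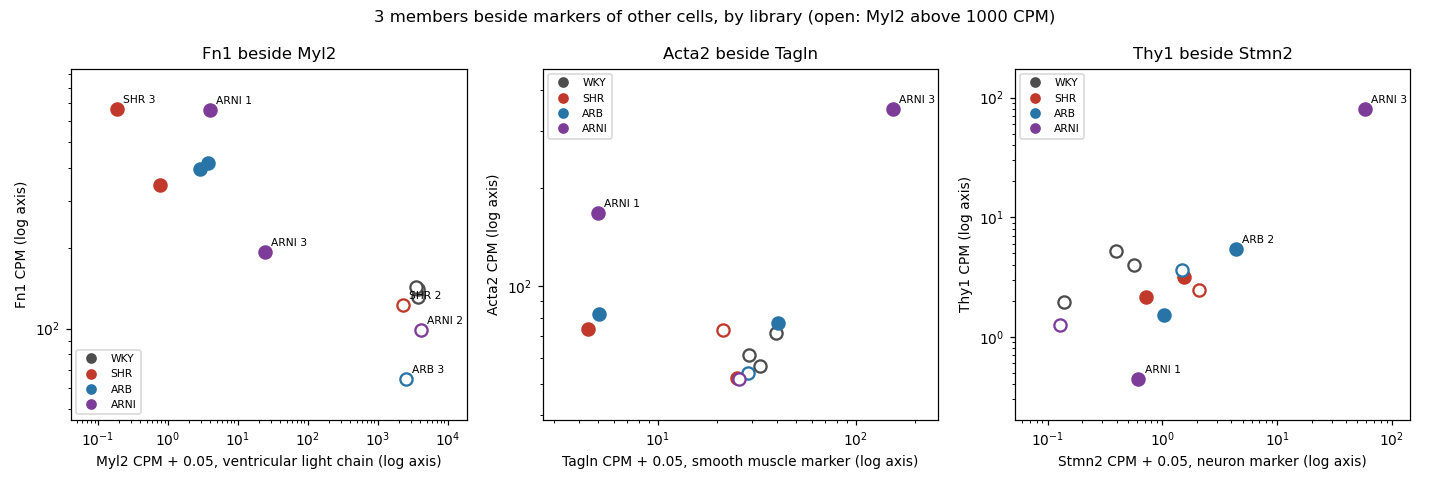
CPM of Fn1, Acta2 and Thy1 (y axes) beside CPM plus 0.05 of Myl2, Tagln and Stmn2 (x axes), all on log scales, with 1 point per library, coloured by group and open where Myl2 exceeds 1000 CPM. Fn1 lies at 143 CPM or less in all 6 libraries on the right of its panel, ARNI 1 combines high Acta2 with low Tagln, and ARNI 3 is highest in Acta2, Tagln, Thy1 and Stmn2.

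Sparc encodes osteonectin, which binds collagen in the extracellular space and is also made by endothelial cells. It varied least of all members, from 953 to 1484 CPM over the 12 libraries. It was at 1009, 999 and 1098 CPM in WKY, at 999, 1037 and 1484 CPM in SHR, at 982, 1056 and 1308 CPM in ARB and at 953, 1080 and 1147 CPM in ARNI. SHR against WKY was 0.04 (SE 0.17), and the 95% intervals of all 4 comparisons lay between -0.60 and 0.54, so a change of the size of the calling limit lay outside them.

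Tnc encodes tenascin C, a glycoprotein of provisional matrix that is low in healthy myocardium. It was at 1.62, 2.43 and 0.89 CPM in WKY, at 1.34, 1.34 and 1.76 CPM in SHR, at 1.19, 2.41 and 1.19 CPM in ARB and at 1.26, 0.39 and 4.07 CPM in ARNI. The lowest and the highest library were both ARNI, and ARNI against SHR went from 0.40 to -0.72 without ARNI 3. These levels stand for 5 to 60 counts, and SHR against WKY was -0.29 with an interval of -1.21 to 0.63.

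Postn encodes periostin, which takes part in collagen crosslinking and is the usual marker of activated cardiac fibroblasts. It was at 7.59, 17.0 and 6.84 CPM in WKY, at 2.27, 5.36 and 14.8 CPM in SHR, at 3.04, 11.3 and 6.03 CPM in ARB and at 3.10, 3.54 and 11.4 CPM in ARNI. The groups overlapped in every pair, and the highest level of all was in a WKY library. SHR against WKY was -0.64 (SE 0.66, interval -2.21 to 0.92, adjusted p = 0.495 by edgeR). The intervals in ARB against SHR and ARNI against SHR, -1.76 to 1.56 and -2.12 to 1.62, included changes of more than 1 in both directions.

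Cthrc1, a secreted protein of collagen-producing fibroblasts in healing scars, was close to the limit of detection. It was at 0.26, 0.43 and 0.44 CPM in WKY, at 0.07, 0.63 and 2.44 CPM in SHR, at 0.73, 0.89 and 0.40 CPM in ARB and at 0.63, 0.16 and 1.56 CPM in ARNI, which stand for 1 to 36 counts. WKY 1, SHR 1 and ARNI 2 lay at or under the 3 reads that a count of 0 allows. The gene was tested in ARB against SHR (-0.57, SE 0.94) and ARNI against ARB (0.25, SE 0.72) and did not pass the filter in the other comparisons, and with every gene that had a read kept SHR against WKY was 1.28 (SE 0.99, adjusted p = 0.417 by edgeR).

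Acta2 was at 61.3, 56.7 and 71.5 CPM in WKY, at 73.7, 73.2 and 52.2 CPM in SHR, at 82.3, 76.8 and 54.1 CPM in ARB and at 168, 51.7 and 351 CPM in ARNI. Outside ARNI all 9 libraries lay between 52.2 and 82.3 CPM, and ARNI held the lowest library together with the 2 highest. ARNI against SHR was 1.53 (SE 0.60, interval 0.07 to 3.00), with an unadjusted p of 0.0425 and an adjusted p of 0.999 by edgeR, and ARNI against ARB was 1.43 (SE 0.59) with an unadjusted p of 0.0485 and an adjusted p of 0.993. Leaving out ARNI 3 gave 0.79 and 0.69, and no alternative called the gene.

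The 2 ARNI libraries with high Acta2 differed in their smooth muscle markers. In ARNI 3, Tagln was at 154 CPM, Cnn1 at 24.2 CPM, Actg2 at 29.9 CPM and Myh11 at 154 CPM, each the highest of the 12 libraries, and the 14 smooth muscle and pericyte markers summed to 928 CPM against 490 to 836 CPM in the other 11. Of these 14 genes ARNI 3 was the highest library in 7 and among the 3 lowest in 2. Those 2 were Smtn at 165 CPM, the lowest of all 12 libraries, and Myocd at 55.4 CPM. In ARNI 1, Tagln was at 4.93 CPM, Cnn1 at 1.64 CPM and Myh11 at 20.9 CPM, the last being the lowest of all 12, and the list summed to 507 CPM, and ARNI 1 was among the 3 lowest libraries in 10 of its 14 genes. Not every contractile gene was low there, since Myocd, the coactivator of serum response factor, was at 124 CPM and Tpm2, a tropomyosin of contractile fibres, at 203 CPM, both the highest of the 12 libraries. Neither level was particular to ARNI 1. In SHR 1, SHR 3, ARB 1 and ARB 2, Myocd was at 101 to 117 CPM and Tpm2 at 129 to 163 CPM. In WKY, Myocd was at 66.7 to 76.2 CPM and Tpm2 at 13.8 to 19.4 CPM. The growth factor responsive gene Ccn2 was at 552 CPM in ARNI 1 and at 728 CPM in ARNI 3, against 79.4 to 536 CPM in SHR. The part of smooth muscle in ARNI 3 was not tested. Actc1, the cardiac actin whose sequence resembles Acta2, was at 8485 to 17313 CPM, and a read that matches both genes is shared between them by the authors' counting.

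The promoter sequences of Acta2, Pdgfra and Lum are shown because Acta2 departed from the fibroblast markers while Pdgfra and Lum varied together. They come from RefSeq (GRCr8, 250 bases before the transcription start to 50 after it, 5′ to 3′ on the gene's strand), in which 6 of the 10 members had an entry, and the counts were made on another build, Rnor_6.0. Acta2 is at chr1:241172454-241172753 on the minus strand, Pdgfra at chr14:33408467-33408766 on the minus strand and Lum at chr7:34245456-34245755 on the plus strand. Capitals mark 2 motifs, searched on both strands: the CArG box of serum response factor, written as CC, 6 bases with at most 1 G or C, and GG, and the MCAT element CATTCC of the TEAD factors.
Acta2: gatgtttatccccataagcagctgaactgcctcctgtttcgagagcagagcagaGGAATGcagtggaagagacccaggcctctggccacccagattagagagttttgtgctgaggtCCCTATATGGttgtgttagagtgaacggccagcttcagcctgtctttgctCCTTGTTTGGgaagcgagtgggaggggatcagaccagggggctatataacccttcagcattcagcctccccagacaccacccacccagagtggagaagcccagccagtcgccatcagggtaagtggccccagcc
Pdgfra: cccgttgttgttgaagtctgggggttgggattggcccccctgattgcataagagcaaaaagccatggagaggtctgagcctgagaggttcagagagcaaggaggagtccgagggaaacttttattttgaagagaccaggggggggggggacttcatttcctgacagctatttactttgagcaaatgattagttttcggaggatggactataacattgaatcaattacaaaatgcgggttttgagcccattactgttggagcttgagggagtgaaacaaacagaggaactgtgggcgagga
Lum: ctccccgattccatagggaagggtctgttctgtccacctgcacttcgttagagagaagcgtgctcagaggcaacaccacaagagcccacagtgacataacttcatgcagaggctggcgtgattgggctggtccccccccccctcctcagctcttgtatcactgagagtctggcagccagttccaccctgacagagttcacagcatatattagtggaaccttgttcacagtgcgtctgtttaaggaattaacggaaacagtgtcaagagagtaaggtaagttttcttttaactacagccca
Acta2 had 2 CArG boxes, starting 134 and 84 bases before the start site, and 1 MCAT element, starting 196 bases before it, while Pdgfra and Lum had none of either in this window. The CArG box as defined occurred in 9.42% of 33469 promoters and the MCAT element in 14.2%. Of the 6 members with an entry, Acta2 was the single one with a CArG box, and Sparc also had an MCAT element. A match in letters is not a measured binding site.

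In the treated groups no gene passed the test at all, so the members could not stand out by a call. In ARB against SHR, 0 of 10 members were called and the background was 0.00% of 13979 genes, in ARNI against SHR 0 of 9 and 0.00% of 13955 genes, and in ARNI against ARB 0 of 10 and 0.00% of 13948 genes. At an unadjusted p under 0.05 edgeR had 225, 227 and 539 genes (1.61%, 1.63% and 3.86%), among them Acta2 in both ARNI comparisons and Dcn in ARNI against ARB, and DESeq2 called 3, 7 and 18 genes, none of them a member. The members' median log2 fold change was 0.04, -0.07 and 0.08, beside -0.01, 0.00 and 0.02 over all genes. No member had groups that did not overlap in any of these comparisons, where the background was 5.39%, 6.56% and 10.5%. ARB and ARNI were compared with the same SHR libraries, so both share the high values of SHR 3.

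**Figure D3:**
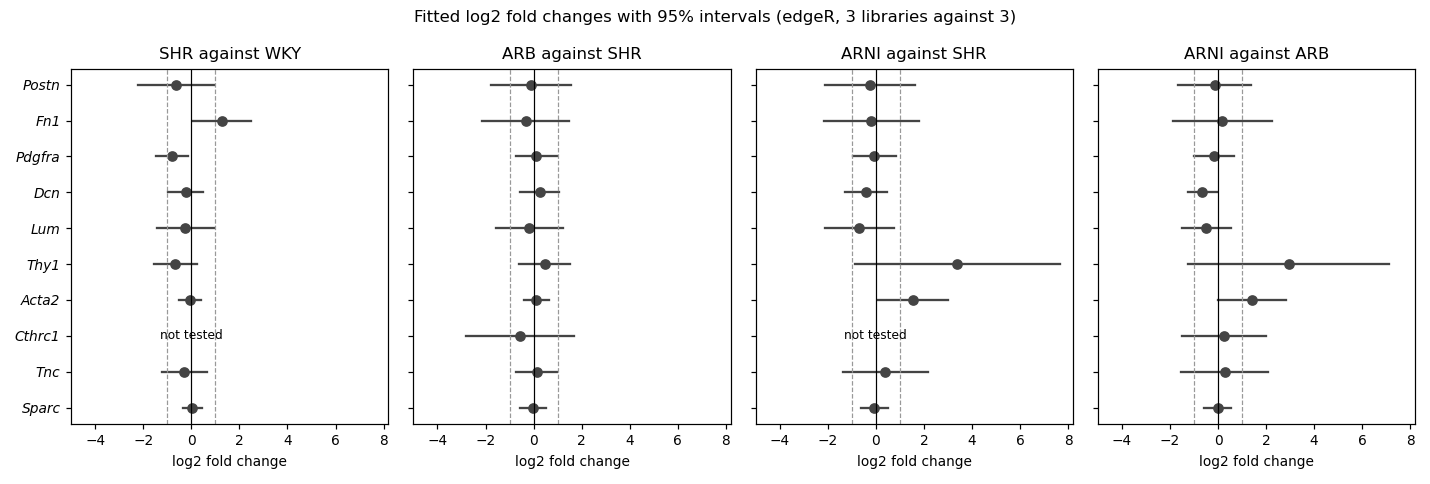
Log2 fold changes of the 10 members (x axis, by gene on the y axis) in the 4 comparisons, with 95% intervals from edgeR and dashed lines at 1 and -1. Most intervals include 0, those of Fn1 and Pdgfra in SHR against WKY, Acta2 in both ARNI comparisons and Dcn in ARNI against ARB do not, and Cthrc1 was not tested in 2 comparisons.

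Ordered by their group means, the members did not share a sequence of groups. WKY had the highest mean of Postn, Pdgfra and Lum, SHR of Fn1, Cthrc1 and Sparc, ARB of Dcn, and ARNI of Thy1, Acta2 and Tnc. Neighbouring groups in these orders overlapped in their ranges in every case but that of Pdgfra between WKY (mean 99.6 CPM ± 13.3, SD, n = 3) and ARB (65.6 CPM ± 21.4). The share of all genes that separate WKY from ARB was not counted, and in SHR against WKY 49.5% of genes did not overlap. The separation is therefore no result about Pdgfra.

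The members varied together only in part. Over the 12 libraries, the 45 pairs had a median Pearson r of 0.33 for log2 CPM, and 33 pairs were above 0, with libraries that share strain, chamber markers and depth differences. Pdgfra and Lum had the highest r at 0.92, followed by Dcn and Lum at 0.84, Postn and Lum at 0.82 and Postn and Pdgfra at 0.79. Thy1 and Tnc had an r of 0.75, with ARNI 3 highest in both. Fn1 and Pdgfra were at -0.42, so the matrix gene and the cell marker did not move as 1 quantity.

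**Figure D4:**
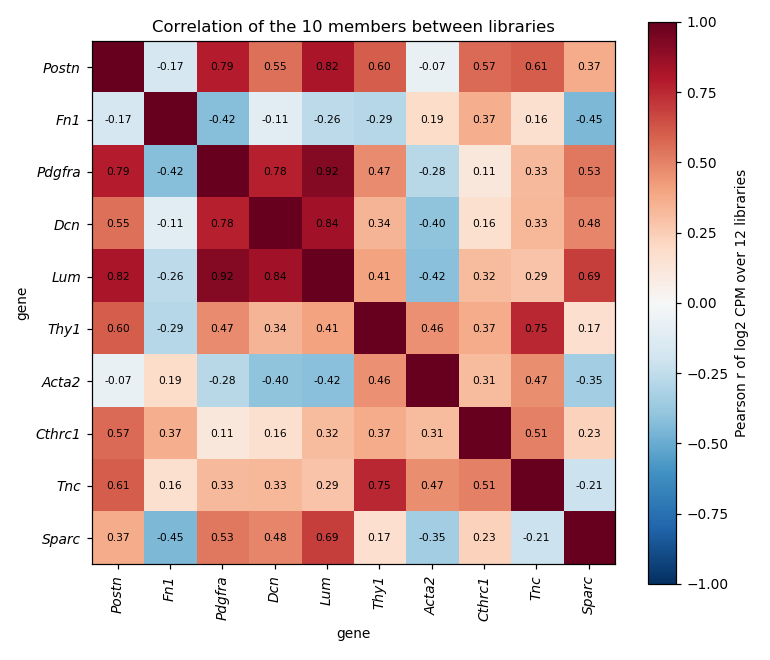
Pearson r of log2 CPM over the 12 libraries for each pair of members (genes on both axes, colour from -1 to 1, values printed). The highest values are those of Lum with Pdgfra (0.92), Dcn (0.84) and Postn (0.82), and Fn1 is at -0.42 with Pdgfra.

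Within each library, the level of a member was also set against Pdgfra as a log2 ratio of counts, which describes the member beside a marker of the same cells. Postn over Pdgfra was nearly equal in the group means, at -3.36, -3.38, -3.40 and -3.43 in WKY, SHR, ARB and ARNI, with SDs of 0.58 to 0.91. Lum over Pdgfra was at 0.35, 0.70, 0.56 and 0.27 and exceeded 1 only in SHR 3, at 1.28. Fn1 over Pdgfra was at 0.24 to 0.76 in WKY and at 1.51 to 2.82 in SHR, and it ran from -0.35 in ARB 3 to 4.08 in ARNI 1. In SHR against WKY the ratios of Fn1, Dcn and Sparc were higher without overlap, 3 of 9 members, but the background of higher ratios to Pdgfra was 49.8% of 14451 genes, since Pdgfra itself was lower in 2 of 3 SHR libraries.

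Some genes on a list compiled for fibroblast activation were called in SHR against WKY although the members were not. A call on this list is not a measure of fibroblast activation. Of the 26 genes tested from this list of 28, 5 were called higher and 0 lower, where the background was 5.54% higher and 3.35% lower. The median log2 fold change was 0.81, with 18 above 0 and 8 below. SHR lay wholly above WKY in 7 and wholly below in 2, where the background of groups that do not overlap was 49.5%. The 2 were Fap (-1.11) and Tagln (-1.14), both named after their values were seen and neither called. Ccn5, a matricellular protein, rose by 3.52 (SE 0.40) and Tpm2 rose by 2.69 (SE 0.27). The other 3 called higher, named after their values were seen, were the collagen-binding proteoglycan Fmod (2.00), the regulatory light chain Myl9 (1.88) and the matrix protein Ltbp2 (1.53). In ARNI 2, the SHR-strain library without atrial markers, all 5 were within or below the WKY range: Ccn5 was at 0.63 CPM, where WKY was at 0.43 to 1.69 CPM and the other 8 SHR-strain libraries at 5.12 to 19.0 CPM. The part of chamber tissue in these 5 calls was not tested. With the marker score as covariate, an extrapolation as above in which the genes called among all fell from 1226 to 87, 0 of the 5 were called: Ccn5 was at 2.13 (SE 1.28), and the other 4 were between -0.35 and -0.07. Without SHR 2, the SHR library with Myl2 above 1000 CPM, the list had 10 called higher and 2 lower. Calls over all genes then rose from 1226 to 2205.

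Of the 22 other identity genes, 0 were called in either direction, with a median of 0.21. SHR lay wholly above WKY in 4 of them and wholly below in 0, where the background of groups that do not overlap was the 49.5% given above. Ddr2, a collagen receptor of fibroblasts, passed the adjusted p alone (-0.59, adjusted p = 0.0454 by edgeR). Without SHR 2, whose identity genes summed to 2500 CPM, 5 were called higher, and calls over all genes rose from 1226 to 2205. SHR 2 is the SHR library with Myl2 above 1000 CPM, so that fit leaves ventricular markers high in WKY only. Without SHR 3, 2 were called lower, while DESeq2 on all 6 libraries called 2 higher.

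Among 17 ligands of platelet-derived growth factor receptors and receptors for matrix, 2 were called in each direction (11.8% each), where the background was 5.54% higher and 3.35% lower. The ligand Pdgfc rose by 1.2 (SE 0.23) and Pdgfd fell by 1.73 (SE 0.34), and Cd44, a receptor for hyaluronan, rose by 2.25 (SE 0.22) while Itga9, an integrin subunit that binds tenascin C, fell by 1.96 (SE 0.25). Pdgfa, a ligand of the receptor encoded by Pdgfra, was past the adjusted p with a smaller change of 0.89 (adjusted p = 0.00494 by edgeR), at 26.3 to 31.5 CPM in WKY and 53.7 to 60.2 CPM in SHR. In ARNI 2 the 4 called genes lay between the WKY range and that of the other 8 SHR-strain libraries. Leaving out single libraries gave 1 to 2 called higher and 1 to 3 called lower.

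**Figure D5:**
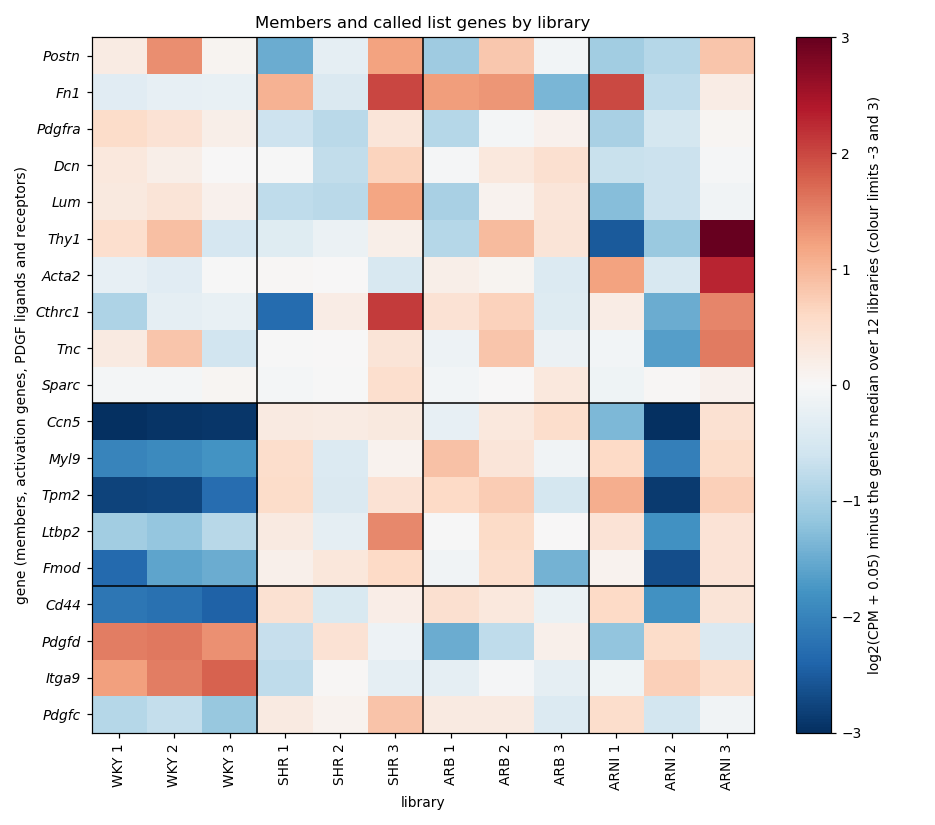
Log2 of CPM plus 0.05 minus the gene's median over the 12 libraries (colour) for the 10 members, the 5 called activation genes and the 4 called ligands and receptors (y axis) by library (x axis). The activation genes are low in the 3 WKY libraries and in ARNI 2, and no member divides the libraries in that way.

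Markers of other cells moved in the same comparison, where the background of calls was again 5.54% higher and 3.35% lower. All 6 atrial myocyte markers were called higher, among them Mybphl, at 384 to 825 CPM in SHR and at most 0.09 CPM in WKY, and Bmp10, at 1.02 to 933 CPM in SHR and at most 0.09 CPM in WKY. Of 5 ventricular markers Myh7, the slow myosin heavy chain, was called lower (-4.65), and of 6 valve and tendon-like markers Fmod was called higher. Of 10 epicardial and mesothelial markers, 8 were called higher and 0 lower in SHR against WKY, with a median log2 fold change of 2.22 and the uroplakins Upk1b (2.77) and Upk3b (2.62) the largest. In ARNI 2 all 8 lay within or below the WKY range. ARB 3, which did carry atrial markers, was low too: the 10 markers summed to 87.3 CPM there and to 56.9 CPM in ARNI 2, against 72.4 to 96.5 CPM in WKY. Of 14 smooth muscle and pericyte markers, 0 were called higher and 2 lower, Myh11 (-1.13) and Kcnj8 (-1.04), and in 5 of 6 fits that leave out 1 library 0 were called lower. Of 8 leukocyte markers tested, Ptprc was called lower (-1.64), of 5 neuron and glia markers tested Prph was called higher (1.31), and of 12 endothelial markers 0 were called. Their part in the members' levels was not tested.

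The genes whose levels followed each member most closely over the 12 libraries were taken from 14442 others, with r as a description. Fn1 had the closest partners, Armcx4, Xylt1 and Acin1, at 0.99, 0.98 and 0.97. Pdgfra was followed by Slfn13, by the macrophage mannose receptor Mrc1 and by the proteoglycan Aspn, at 0.97, 0.97 and 0.96, and Lum by Angptl1, the matrix protease Mmp2 and Aspn, at 0.95, 0.94 and 0.94. Dcn was followed by Serping1 at 0.96, Papss2 at 0.95 and Fcgr1a at 0.95, and Sparc by Tnfaip8l1 at 0.96, Kcnk6 at 0.91 and Fscn1 at 0.88.

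The remaining members had the following partners. Thy1 was followed by the neuronal tubulin Tubb3 at 0.96, Mapk8ip2 at 0.93 and Camk4 at 0.93, and Tnc had Ephb6 at 0.90 and Pde3b at 0.88 among its 3 closest, all with ARNI 3 included. Acta2 was followed by Ptges3 at 0.92, Enah at 0.91 and Fhl1 at 0.89. Postn was followed by Dock10 at 0.92, the heparan sulfatase Sulf1 at 0.90 and Rassf2 at 0.90, and Cthrc1, at few counts, by LOC688839 at 0.92, Fndc1 at 0.89 and Lama3 at 0.87.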

How the data were processed

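Left atrial RNA of 12 rats was sequenced as single-end reads, and the authors deposited expected counts per gene, estimated by RSEM without normalization, in which a read that matches several genes is shared. The submitters' processing notes name HISAT2 2.0.4, Bowtie2 2.2.5 and Rnor_6.0. Of 37246 genes listed, 21239 had counts and 16007 were blank. The table also holds the authors' own log2 fold changes and p-values of SHR over WKY, which were not used.

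Expected counts were rounded and analysed with edgeR 4.0.16 in R 4.3.3: filterByExpr, TMM scaling and the quasi-likelihood test on the 6 libraries of each pair, with Benjamini-Hochberg adjustment over all genes tested. CPM carry no TMM factor. In SHR against WKY the median over all genes was 0.15 on the log2 scale by library totals alone and 0.02 with TMM. Standard errors were derived from the F statistic. The 10 members were named in every comparison, and from the 12 other gene lists the called genes where there were at most 4, otherwise the 2 with the largest change in each direction. Members and lists were chosen with earlier results of these data known. The labels number the libraries but do not tie them to animals, so p-values measure the spread between libraries. Deviations of same-numbered libraries from their group means correlated at 0.51, 0.46 and 0.19 in ARNI against SHR, and were not above 0 in all 3 pairs of any other comparison. These values do not show that the numbers pair the libraries, since SHR 2 and ARNI 2 also share Myl2 above 1000 CPM.

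Alternatives were DESeq2 1.42.0, RLE factors, no scaling, no filter, 1 fit of all libraries, a replicate block, the chamber score as covariate (mean log2 CPM of atrial minus ventricular markers) and leaving out libraries. List counts under these alternatives were added after seeing the data. The steps were tested on simulated counts. One of the genes that the rule on closest partners names is not reported here. Tables and figures used Python 3.11.15, pandas 2.3.3, numpy 2.4.6 and matplotlib 3.10.9. Limits from counts of 0 cover counting error only.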

Additional observations from a re-analysis of the deposited data

How the results depend on the processing

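Over the 4 comparisons, 523 single member values were recomputed, and 60 changed sign, 4 newly passed both thresholds and 0 lost a call, since none had passed. In SHR against WKY, DESeq2 called 1 member and had 2 past the adjusted p, and leaving out 1 library gave 0 to 2 members called. The sign turned without scaling for Acta2 (0.070), and with the chamber score as covariate for Fn1 (-1.46) and Lum (0.071). In ARB against SHR, the replicate block turned Postn (0.092), and leaving out SHR 2, ARB 3 and ARNI 2 together turned Pdgfra (-0.33) and Dcn (-0.19). In ARNI against SHR, the covariate turned Fn1 (0.36). In ARNI against ARB, the replicate block turned Cthrc1 (-0.017) and Tnc (-0.059), and leaving out the same 3 libraries turned Postn (0.045), Pdgfra (0.059) and Sparc (0.062). The cause was not tested.

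The replicate block called 0 members in each comparison and lowered the genes called in SHR against WKY from 1226 to 681. In ARNI against SHR, where the deviations of same-numbered libraries correlated, it changed no call, and 0 genes had been called there without it. All libraries in 1 fit gave 579 genes called in SHR against WKY, DESeq2 1601, the covariate 87, and leaving out single libraries 348 to 393 without 1 WKY library, 577 without SHR 1, 1147 without SHR 3 and 2205 without SHR 2. The lists in SHR against WKY moved too: called higher were 2 activation genes and 2 epicardial genes in 1 fit of all libraries, 0 of each with the covariate, and 3 epicardial genes without WKY 2 or WKY 3.

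Leaving out 1 library turned signs as follows. In SHR against WKY, the fold change ran for Acta2 from -0.17 to 0.12, Dcn from -0.59 to 0.021, Lum from -1.15 to 0.048, Sparc from -0.12 to 0.13 and Tnc from -0.58 to 0.091. In ARB against SHR, the fold change ran for Acta2 from -0.067 to 0.24, Cthrc1 from -1.12 to 0.95, Dcn from -0.009 to 0.60, Fn1 from -0.74 to 0.29, Lum from -0.52 to 0.70, Pdgfra from -0.15 to 0.50, Postn from -0.61 to 0.79, Sparc from -0.21 to 0.13 and Tnc from -0.23 to 0.30. In ARNI against SHR, the fold change ran for Fn1 from -1.26 to 0.46, Lum from -0.99 to 0.21, Pdgfra from -0.32 to 0.33, Postn from -1.02 to 0.65, Sparc from -0.16 to 0.10, Thy1 from -1.45 to 3.98 and Tnc from -0.72 to 0.85. In ARNI against ARB, the fold change ran for Cthrc1 from -0.65 to 0.68, Fn1 from -0.92 to 0.57, Pdgfra from -0.41 to 0.088, Postn from -0.90 to 0.37, Sparc from -0.11 to 0.16, Thy1 from -1.91 to 3.51 and Tnc from -0.84 to 0.73.

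Depth limited Cthrc1 (1 to 36 counts) and Tnc (5 to 60 counts), and with 3 libraries a group the 95% intervals of Postn, Fn1, Lum and Thy1 in the treated comparisons spanned more than 2 log2 units.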
